A study of Mus musculus with 8 samples.

Results

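Bile duct keratins and epithelial adhesion genes were followed in marrow-derived and resident endothelial cells from the liver of bone-marrow chimeric mice. The group holds 10 genes of 21161 measured: the keratin genes Krt7, Krt8, Krt18 and Krt19, the adhesion and junction genes Cdh1, Epcam and Cldn4, the transcription factor gene Sox9, the secreted protein gene Spp1 and the channel gene Cftr. They were listed by name as genes that mark bile duct epithelium, and each was read from the probe set that carries its symbol alone, of which every member has 1. All 10 were found on the array.

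The recipients were C57BL/6N mice, 8 weeks old, that were irradiated with 9 Gy in 2 doses of 4.5 Gy and then given 5000 YFP-labelled LSK cells, a marrow fraction rich in blood stem and progenitor cells. At 1 month, cells without surface CD45, the leukocyte marker, and with the endothelial surface markers CD31 and CD146 were sorted from collagenase-digested liver, and these were divided by YFP into marrow-derived cells (YFP+, 4 arrays) and resident cells (YFP-, 4 arrays). Both groups therefore came from irradiated, transplanted mice, and unirradiated animals were not analysed here. The sources used here give neither the promoter that drives YFP nor the donors' strain.

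Bile ducts are lined by cholangiocytes, which carry bile from the hepatocytes to the gut and adjust its salt and water content. Like other simple epithelia they build an intermediate filament network in which each filament pairs a type I keratin (such as K18 or K19) with a type II keratin (such as K7 or K8), and they are joined by E-cadherin at adherens junctions and by claudins at tight junctions. In liver, Krt7 and Krt19 mark ducts, Krt8 and Krt18 are also made by hepatocytes, and endothelial cells are held together by VE-cadherin (Cdh5) and use vimentin (Vim) filaments.

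Levels are log2 of the intensities as the authors normalized them, so a difference of 1 is a factor of 2. A level is compared between arrays for the same gene only, since each probe set has its own brightness. The arrays had median gene intensities of 161 to 166 units. Negative control probe sets had medians of 119 to 127 units on YFP- and 103 to 113 units on YFP+ arrays, without overlap. Their 95th percentile, here called the brightness threshold, lay at 8.98 to 9.10 log2 on YFP- and 8.73 to 9.03 log2 on YFP+ arrays. YFP+ replicate 3 stood apart, with the highest background control median (87.5 units against 76.0 to 81.5 units elsewhere) and the lowest array weight in limma (0.313 against 0.776 to 1.59), so member calls are also given without it where they change. The endothelial label was borne out by Pecam1, the gene of the sort marker CD31 (11.36 to 11.72 log2 over all 8 arrays), and by Cdh5 (11.56 to 12.07). Both were above the threshold on every array. So was Mcam, the gene of the sort marker CD146, with means of 10.02 log2 on YFP- and 9.38 on YFP+ arrays. Its difference of -0.63 was not called in the test below (limma adjusted p = 0.297). All 12 pan-endothelial markers had negative differences. Only Tek, an angiopoietin receptor gene, passed that test, lower in YFP+ cells (-0.73 log2, limma adjusted p = 0.0224).

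The YFP+ cells carried more keratin, E-cadherin and osteopontin transcript than the YFP- cells. All 10 members had positive differences, with a median of 1.22 log2 against 0.00 over all genes, and 6 passed the test (limma, Benjamini-Hochberg adjusted p under 0.05 over all genes, a gene that passes being called): Krt7, Krt8, Krt18, Krt19, Cdh1 and Spp1. No member was called lower. Of all 21161 genes, 269 were called higher, which is 1.27%, and 340 were called in either direction, which is 1.61%. In 6 members the lowest YFP+ array lay above the highest YFP- array, against 4.80% over all genes tested. Those 6 are not the same 6: Spp1 was called with a narrow overlap, and Cftr had no overlap but no call. Subtracting each array's background control median, an alternative chosen after the values were seen, left 2 members called, Krt7 and Cdh1. In sorted bulk samples, more cells of a type and more RNA per cell cannot be told apart.

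**Figure D1:**
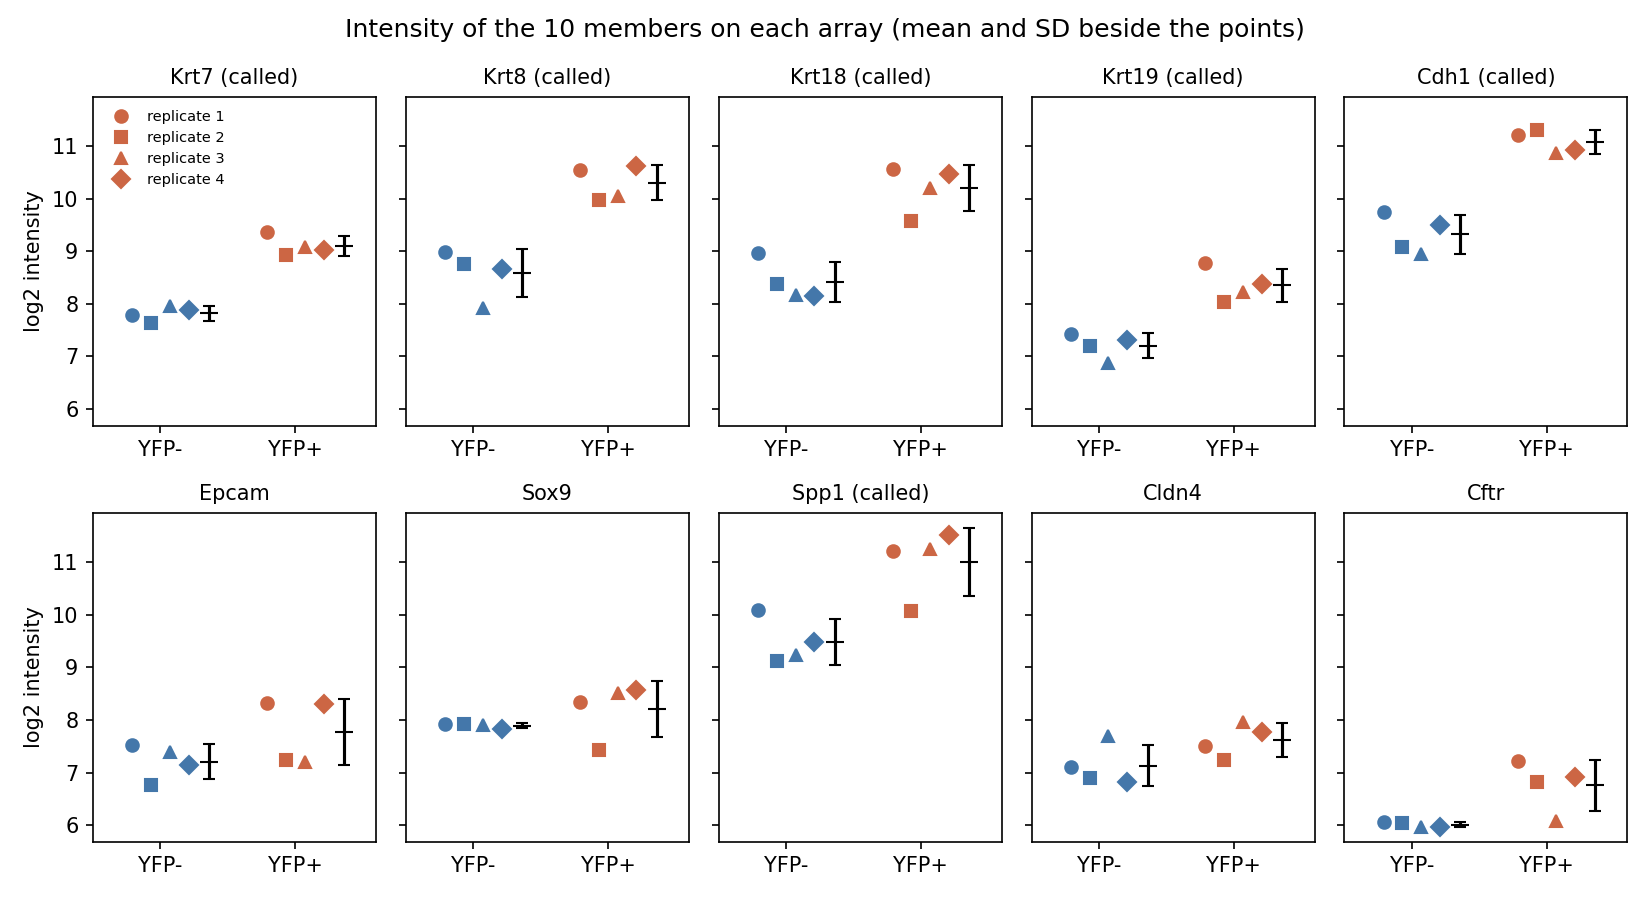
Log2 intensity (vertical axis) of the 10 members on each array, YFP- in blue and YFP+ in orange, with 1 symbol per replicate number and the mean and SD of the 4 arrays at the right of each group. Krt7, Krt8, Krt18, Krt19 and Cdh1 separate the groups, Spp1 replicate 2 of YFP+ (10.07) sits beside the highest YFP- array (10.09), and Epcam splits the YFP+ arrays 2 and 2.

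**Figure D2:**
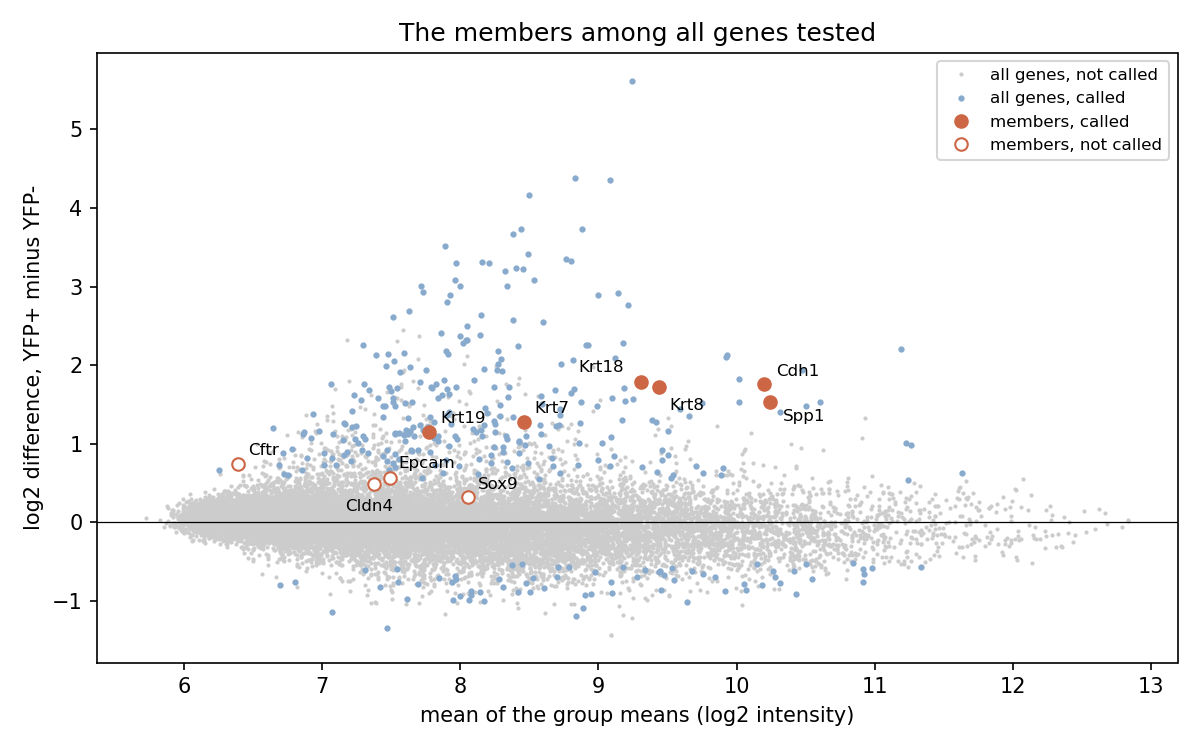
Log2 difference of every gene tested (vertical axis) against the mean of its group means (horizontal axis, log2 intensity), with called genes in blue and the members in orange, filled where called. The 6 called members lie between 1.15 and 1.78 on the vertical axis.

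Krt8 and Krt18 encode the K8 and K18 partners of the first keratin filaments of simple epithelium. Krt8 stood at 8.98, 8.76, 7.92 and 8.66 log2 on YFP- replicates 1 to 4 and at 10.54, 9.98, 10.04 and 10.62 on YFP+ replicates 1 to 4. Each YFP+ array was at least 1.00 log2 above each YFP- array, and YFP- replicate 3 was the lowest. The means were 8.58 ± 0.46 and 10.30 ± 0.33 (SD, n = 4), a difference of 1.72 (SE 0.24, 95% interval 1.19 to 2.24, limma adjusted p = 0.00784).

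Its partner Krt18 stood at 8.97, 8.38, 8.17 and 8.16 log2 on the YFP- and at 10.57, 9.58, 10.19 and 10.46 on the YFP+ arrays. The groups did not overlap, and replicate 1 was the highest array of both. The difference was 1.78 (SE 0.24, 95% interval 1.24 to 2.33, limma adjusted p = 0.00759), the largest of the 10 members on the values as deposited. Both genes lie close together on chromosome 15. They were below the brightness threshold on every YFP- array and above it on every YFP+ array, so set against that threshold Krt8 was at least 2.36-fold and Krt18 at least 2.21-fold higher. These bounds divide the YFP+ mean by the mean threshold of the YFP- arrays, both on the log2 scale. When the negative control median of each array was subtracted first, the difference of Krt8 was 2.19 and missed the test (limma adjusted p = 0.0648).

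Krt7 and Krt19, a type II and a type I keratin, set ducts apart from hepatocytes. Krt7, also on chromosome 15, stood at 7.79, 7.63, 7.96 and 7.89 log2 on the YFP- arrays and at 9.37, 8.93, 9.08 and 9.02 on the YFP+ arrays. It was the most even member among those called, with SDs of 0.14 and 0.19 (n = 4), and the gap between the groups was 0.97. The difference was 1.28 (SE 0.13, 95% interval 0.99 to 1.58), and its limma adjusted p of 0.00228 was the lowest of the 10. It passed the brightness threshold on all 4 YFP+ arrays and on no YFP- array, by little, and the bound is at least 1.03-fold.

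Krt19, on chromosome 11, stood at 7.42, 7.20, 6.87 and 7.31 log2 on the YFP- arrays and at 8.77, 8.03, 8.23 and 8.39 on the YFP+ arrays, again without overlap. Replicate 1 was highest in both groups. The difference was 1.15 (SE 0.18, 95% interval 0.76 to 1.55, limma adjusted p = 0.0134), and without YFP- replicate 2 it missed the test (limma adjusted p = 0.0524). Krt19 was below the brightness threshold on all 8 arrays, so no fold is given and its order among the members is not settled. With the negative control median of each array subtracted first, its difference was 2.93 (limma adjusted p = 0.0322), the largest of the 10, against 2.31 for Krt18, 2.19 for Krt8 and 2.12 for Krt7. Values were floored at 16 units after this subtraction. Krt19 on YFP- replicate 3 (6.87 log2) lay below that array's negative control median (6.93 log2) and was set to the floor, so the 2.93 rests partly on near-floor values.

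Keratin genes of other epithelia were not called. Of 17 measured keratin genes outside the group, among them the basal and stratified types Krt5, Krt14 and Krt10, none passed the test, the median difference was 0.03 and 9 were positive. All 17 lay below the brightness threshold on every array. Krt5, the type II keratin of basal cells, stood at 6.36 to 6.55 log2 on the YFP- and 6.28 to 6.59 on the YFP+ arrays, with overlapping groups (difference -0.0050, limma adjusted p = 0.993). Krt23, chosen after the values were seen, had the largest difference of the 17, 1.00 (limma adjusted p = 0.0637). In some alternative runs, such as array weights or without YFP+ replicate 2, 1 of the 17 was called.

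Promoter windows from RefSeq (build GRCm38.p6), 250 bases before to 50 after the annotated start, matched 7 of the 10 members; Krt19, Cdh1 and Sox9 had no entry. The windows of the 4 called members with an entry are shown because these genes were higher together, 5′ to 3′ on the gene's strand, with each CACCTG hexamer or its reverse complement CAGGTG in capitals. This hexamer is an E-box, the motif known to be bound by E-cadherin repressors of the Snail and Zeb families. Of the 2 windows of Spp1, the one with a match is printed.
Krt7, chr15:101412153-101412452, plus strand: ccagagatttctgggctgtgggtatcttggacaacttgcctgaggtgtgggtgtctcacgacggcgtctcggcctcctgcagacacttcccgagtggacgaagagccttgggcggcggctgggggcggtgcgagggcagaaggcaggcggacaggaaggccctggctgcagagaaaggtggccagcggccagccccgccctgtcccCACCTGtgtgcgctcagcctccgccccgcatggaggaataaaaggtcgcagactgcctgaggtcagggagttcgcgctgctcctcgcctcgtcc
Krt8, chr15:102004293-102004592, minus strand: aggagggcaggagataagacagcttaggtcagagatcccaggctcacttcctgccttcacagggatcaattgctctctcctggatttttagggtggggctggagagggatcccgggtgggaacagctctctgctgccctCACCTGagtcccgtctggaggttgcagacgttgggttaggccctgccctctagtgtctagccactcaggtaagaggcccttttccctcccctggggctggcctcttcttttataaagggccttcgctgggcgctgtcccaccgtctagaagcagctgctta
Krt18, chr15:102027966-102028265, plus strand: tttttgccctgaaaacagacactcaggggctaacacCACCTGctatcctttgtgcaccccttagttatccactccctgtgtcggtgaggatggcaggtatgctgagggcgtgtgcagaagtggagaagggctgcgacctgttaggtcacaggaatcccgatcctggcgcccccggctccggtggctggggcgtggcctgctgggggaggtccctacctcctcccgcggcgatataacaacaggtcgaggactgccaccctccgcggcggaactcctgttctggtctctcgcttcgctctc
Spp1, chr5:104434861-104435160, plus strand: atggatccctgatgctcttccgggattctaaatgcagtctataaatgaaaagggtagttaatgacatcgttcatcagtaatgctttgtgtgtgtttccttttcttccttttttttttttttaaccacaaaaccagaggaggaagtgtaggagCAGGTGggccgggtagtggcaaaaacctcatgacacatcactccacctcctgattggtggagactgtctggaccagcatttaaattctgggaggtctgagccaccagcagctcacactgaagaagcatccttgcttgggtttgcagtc

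The hexamer, searched on both strands, was in 6 of the 8 windows of these 7 members (Krt7, Krt8, Krt18, Epcam, Cldn4 and 1 of 2 windows of Spp1), whereas 20.2% of 32841 promoter windows of the same length held it. It begins at position 207 of the Krt7 window, 140 of the Krt8 window, 37 of the Krt18 window and 153 of the printed Spp1 window. The Krt7, Krt8 and Krt18 windows each hold it once. The motif was chosen with the members known, a match is a description of letters and not of a bound site, and no test was made. The genes of the repressors themselves were on a list of 9 measured mesenchymal and E-cadherin repressor genes, such as Snai1, Snai2, Zeb1 and Vim, of which none was called (median difference -0.03, 4 positive). Of the 9, 5 lay below the brightness threshold on every array. In some alternative runs, such as array weights or trended and robust eBayes, 1 of the 9 was called. The part of the repressors was not tested.

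Cdh1, which encodes the epithelial adhesion protein E-cadherin and lies on chromosome 8, had the widest gap. It stood at 9.74, 9.08, 8.95 and 9.49 log2 on the YFP- arrays and at 11.22, 11.31, 10.86 and 10.92 on the YFP+ arrays. Every YFP+ array was at least 1.11 log2 above every YFP- array, of which 2 passed the brightness threshold, and unlike the keratins Cdh1 was highest on YFP+ replicate 2. The means were 9.32 ± 0.37 and 11.07 ± 0.22 (SD, n = 4), a 3.38-fold difference of intensity (1.76 log2, SE 0.19, 95% interval 1.34 to 2.18, limma adjusted p = 0.00313).

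Of 12 measured partners of cadherins and other cadherins, such as the catenin genes Ctnna1 and Ctnnd1 and the cadherins of other tissues, none was called, and the median difference was 0.04. Cdh5, the endothelial cadherin, stood at 12.07, 11.97, 12.02 and 12.07 log2 on the YFP- and 11.71, 11.56, 11.85 and 11.89 on the YFP+ arrays. All 4 YFP+ values lay below the YFP- values, but the difference of -0.28 was not called (limma adjusted p = 0.303).

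Epcam, an adhesion protein of the cholangiocyte surface whose gene lies on chromosome 17, was uneven. It stood at 7.53, 6.77, 7.39 and 7.15 log2 on the YFP- arrays and at 8.32, 7.25, 7.21 and 8.31 on the YFP+ arrays. YFP+ replicates 1 and 4 were above all YFP- arrays, and replicates 2 and 3 were within their range. The difference of 0.56 (SE 0.29, 95% interval -0.08 to 1.20) did not pass (limma adjusted p = 0.455).

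Cldn4, a tight junction claudin gene on chromosome 5, stood at 7.12, 6.90, 7.70 and 6.83 log2 on the YFP- arrays and at 7.50, 7.24, 7.97 and 7.77 on the YFP+ arrays. The groups overlapped through the high YFP- replicate 3, and the difference of 0.49 (95% interval 0.01 to 0.97) was not called (limma adjusted p = 0.364). Among 18 other tight junction genes 1 was called, the claudin gene Cldn7. Cldn7 stood at 7.49, 7.86, 7.77 and 7.72 log2 on the YFP- and 9.71, 9.02, 8.43 and 9.05 on the YFP+ arrays, without overlap, a difference of 1.34 (SE 0.23, limma adjusted p = 0.0225). The list had 15 positive differences and a median of 0.24. Among 10 desmosome genes 2 were called higher, the membrane protein gene Perp (1.09, limma adjusted p = 0.0161) and the desmosomal cadherin gene Dsg2 (1.08, limma adjusted p = 0.0437, and 0.0516 without YFP+ replicate 3), with a list median of 0.47.

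Spp1 encodes osteopontin, a secreted phosphoprotein that binds integrins and CD44 and that cholangiocytes and activated macrophages both make. It lies on chromosome 5 and stood at 10.09, 9.11, 9.24 and 9.48 log2 on the YFP- arrays, above the brightness threshold on all 4, and at 11.21, 10.07, 11.25 and 11.52 on the YFP+ arrays. YFP+ replicates 1, 3 and 4 were far above the YFP- arrays, and replicate 2 lay 0.02 below YFP- replicate 1. The means were 9.48 ± 0.43 and 11.01 ± 0.64 (SD, n = 4), a 2.89-fold difference of intensity (1.53 log2, SE 0.31, 95% interval 0.83 to 2.23, limma adjusted p = 0.0441). This call was the least firm of the 6: it was lost without any 1 of 7 arrays (limma adjusted p = 0.0507 to 0.148) and kept without YFP+ replicate 2 (limma adjusted p = 0.00509), and it was lost with quantile normalization (limma adjusted p = 0.0512).

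Receptors of osteopontin were mixed, with 2 of 8 measured genes called higher and 4 positive. The integrin gene Itgb5 had a difference of 0.80 (SE 0.12, limma adjusted p = 0.0125). The hyaluronan and osteopontin receptor gene Cd44, which leukocytes also express, stood at 6.47, 6.62, 6.13 and 6.46 log2 on the YFP- and 8.31, 8.69, 7.09 and 8.06 on the YFP+ arrays, a difference of 1.62 (SE 0.29, limma adjusted p = 0.0268). Its highest array was YFP+ replicate 2, the lowest of the YFP+ arrays for Spp1. Itgb5 and Cd44 both lay below the brightness threshold on every array.

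Sox9, a transcription factor gene of bile duct development on chromosome 11, stood at 7.93, 7.93, 7.90 and 7.83 log2 on the YFP- arrays, an SD of 0.05 (n = 4), and at 8.35, 7.43, 8.51 and 8.56 on the YFP+ arrays. YFP+ replicates 1, 3 and 4 were above every YFP- array and replicate 2 was below every one. The difference of 0.32 (SE 0.23, 95% interval -0.18 to 0.82) did not pass (limma adjusted p = 0.628), and without YFP+ replicate 2 it was 0.58 (limma adjusted p = 0.0493). Of 16 other transcription factors and regulators of the biliary lineage, 2 were called higher, 13 were positive and the median was 0.34. These were Onecut1, which encodes hepatocyte nuclear factor 6, with a difference of 1.25 (SE 0.24, limma adjusted p = 0.0376), and Bicc1, an RNA-binding protein gene whose loss gives kidney cysts in mice, with 1.61 (SE 0.33, limma adjusted p = 0.0466, and 0.0512 without YFP+ replicate 3).

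Cftr, the chloride channel of the apical cholangiocyte membrane, is on chromosome 6. It stood at 6.06, 6.05, 5.98 and 5.97 log2 on the YFP- arrays, below the median of the negative controls on each, and at 7.22, 6.82, 6.08 and 6.92 on the YFP+ arrays. The groups did not overlap, by a margin of 0.02 set by YFP+ replicate 3. The difference of 0.75 (SE 0.21, 95% interval 0.28 to 1.21) was not called (limma adjusted p = 0.130); without YFP+ replicate 3 it was 0.97 (limma adjusted p = 0.00395). Among 17 other transport, receptor and cilium genes of cholangiocytes 2 were called higher and 12 were positive, with a median of 0.19. These were the calcium-activated potassium channel gene Kcnn4 (1.26, SE 0.16, limma adjusted p = 0.00549) and the sodium pump subunit gene Atp1b1 (1.71, SE 0.28, limma adjusted p = 0.0170).

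**Figure D3:**
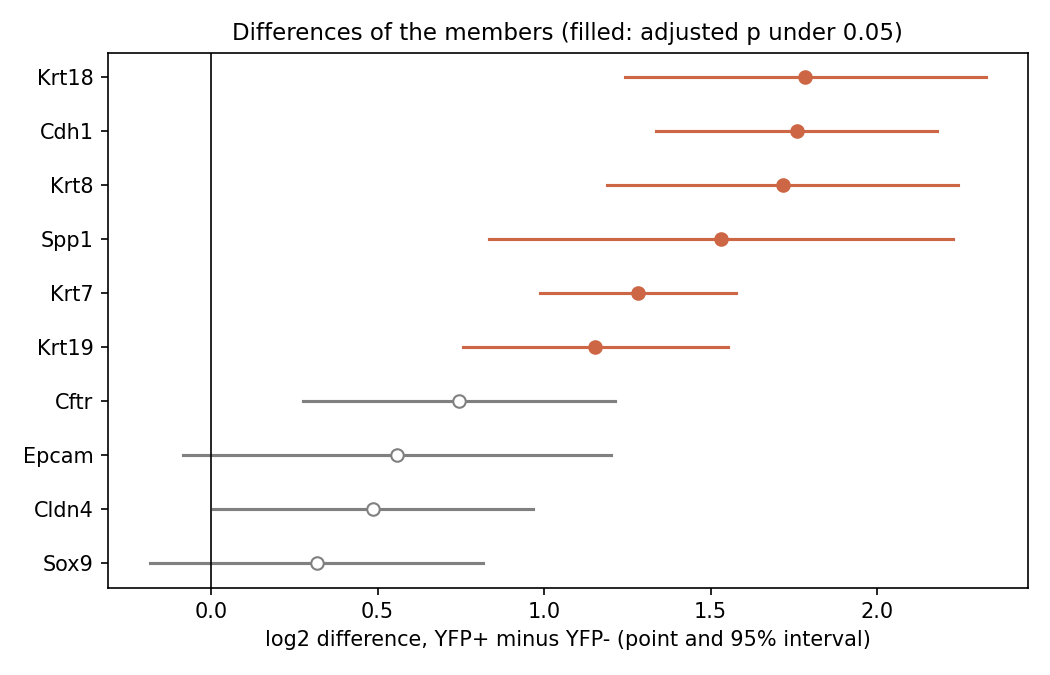
Log2 difference, YFP+ minus YFP-, of each member (horizontal axis) with its 95% interval from limma, filled where the adjusted p is under 0.05. The intervals of Epcam and Sox9 span 0, and those of Cldn4 and Cftr exclude 0 without adjustment for the 21161 genes.

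Further epithelial genes were called higher beside the keratins. The list of epithelial regulators and surface proteins had 18 measured genes, 3 called higher, 16 positive and a median of 0.47. Klf5, a transcription factor gene of epithelial progenitors, stood at 6.96, 6.78, 6.40 and 6.62 log2 on the YFP- and 8.42, 8.45, 8.49 and 8.22 on the YFP+ arrays, which varied little, a difference of 1.70 (SE 0.14, limma adjusted p = 0.000639). The epithelial transcription factor gene Elf3 had a difference of 1.12 (SE 0.22, limma adjusted p = 0.0360) and St14, the gene of the membrane protease matriptase, one of 0.81 (SE 0.16, limma adjusted p = 0.0354). Klf5, Elf3 and St14 were among 16 of the 18 genes that lay below the brightness threshold on every array, so no fold is given.

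Duct mucin and secreted genes had 4 of 14 called higher, 11 positive and a median of 0.56. The trefoil factor gene Tff2, a mucus protein, stood at 8.88, 7.96, 7.63 and 7.67 log2 on the YFP- and 10.66, 9.64, 10.25 and 10.72 on the YFP+ arrays. It had the largest difference of the list, 2.28 (SE 0.31, limma adjusted p = 0.00753). The membrane mucin gene Muc1 had one of 2.13 (SE 0.30, limma adjusted p = 0.00824), the apical membrane protein gene Prom1 one of 1.70 (SE 0.23, limma adjusted p = 0.00702), and Ambp, a plasma protein gene that hepatocytes also express, one of 1.30 (SE 0.24, limma adjusted p = 0.0316). Over the 8 epithelial and biliary lists outside the group, 14 of 122 distinct genes were called, all higher, 91 were positive and the median was 0.23, beside the 1.27% of all genes called higher and a median of 0.00. The 14 became 5 to 8 without any 1 of the YFP- arrays, 7 without YFP+ replicate 1 or 4, and 21 without YFP+ replicate 2. With 1 array left out at a time, the calls numbered 1 to 6 among regulators and surface proteins (6 without YFP+ replicate 3) and 3 to 5 among mucin and secreted genes. They numbered 0 to 3 among desmosome genes and among biliary transcription factors, and 0 to 2 among tight junction genes and among osteopontin receptors. Among transport genes they numbered 1 to 2, and among the other keratins and among the cadherin partners 0 to 1.

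**Figure D4:**
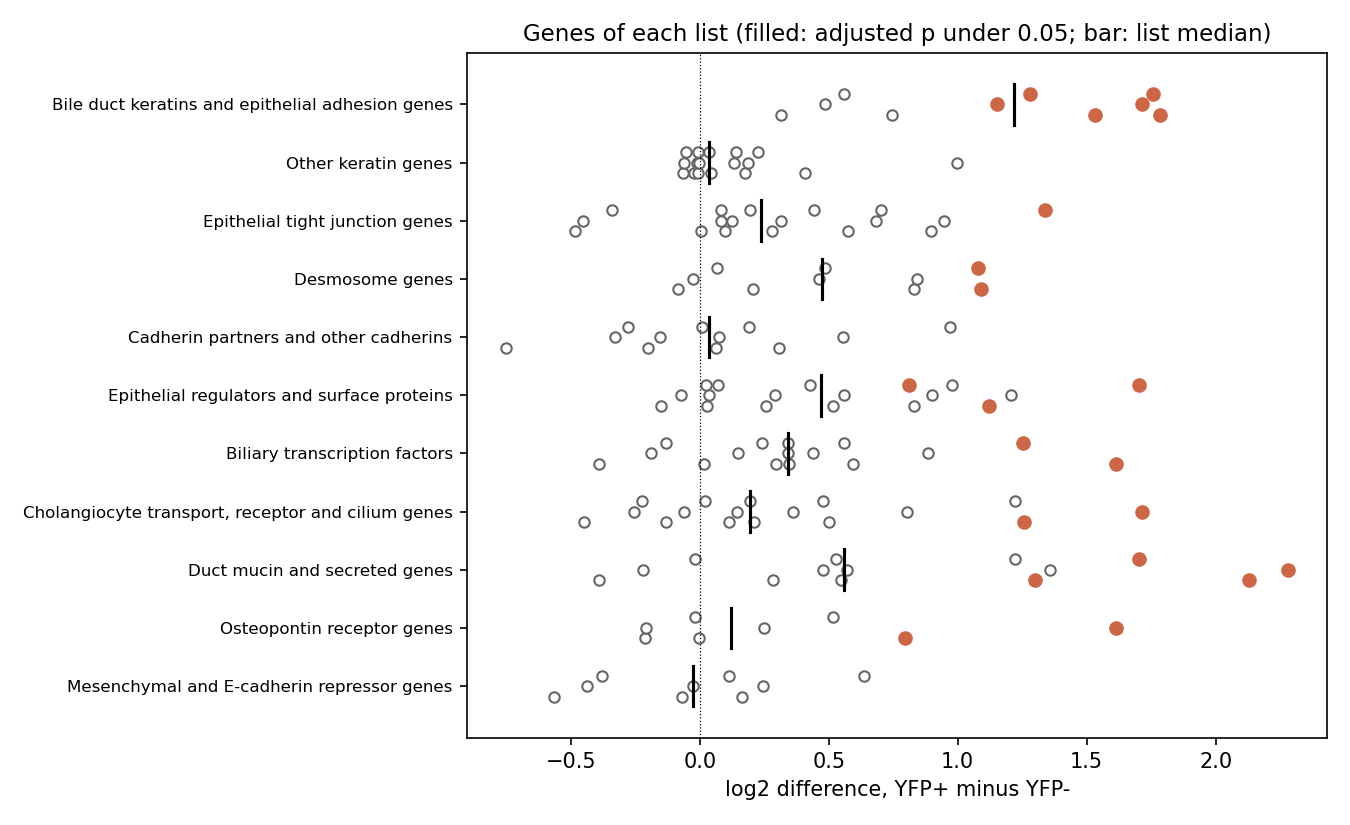
Log2 difference (horizontal axis) of each measured gene on 11 lists, filled where called, with a bar at the list median. The 10 members lie at 0.32 to 1.78, the other keratins crowd around 0, and the mucin and secreted list reaches 2.28.

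The genes whose profile over the 8 arrays lay nearest the mean profile of the members, by Euclidean distance of log2 values centred on each gene's own mean, were Habp2 (0.412), Crb3 (0.434), Kif12 (0.446), Mfsd6 (0.463), Rsph9 (0.478) and Sgpp2 (0.498). Habp2 encodes a protease of blood plasma, Crb3 a polarity protein of the apical epithelial membrane, Kif12 a kinesin motor protein and Rsph9 a protein of motile cilia. Of the members, Krt19 was itself nearest to that mean (0.387) and Cldn4 farthest (1.34). The genes nearest Krt19 were Mfsd6 (0.256), Sgpp2 (0.447), Slc44a4 (0.518), Igf1 (0.534), Crb3 (0.547) and Echdc2 (0.547). Slc44a4 encodes a transporter of choline and related compounds, and Igf1 a growth factor. Crb3 stood at 6.85 to 7.12 log2 on the YFP- and 8.46, 7.87, 7.78 and 8.38 on the YFP+ arrays (difference 1.13, SE 0.17, limma adjusted p = 0.0119), below the brightness threshold on every array. Since the groups differ, such nearness reflects the shared group difference as well as the order of arrays within a group.

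Within the YFP+ group the members differed in the order of the arrays. Replicate 2 was the lowest YFP+ array for 7 of 10 members and replicate 3 for the other 3 (Cdh1, Epcam and Cftr). Replicate 1 was the highest for 5, replicate 4 for 3, and replicates 2 and 3 for 1 each, Cdh1 and Cldn4. Averaged over the 10 members, replicates 1 to 4 of YFP+ lay 1.40, 0.76, 1.03 and 1.34 log2 above the YFP- mean. All 10 members on replicate 4 were above every YFP- array, 9 on replicates 1 and 3, and 6 on replicate 2.

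**Figure D5:**
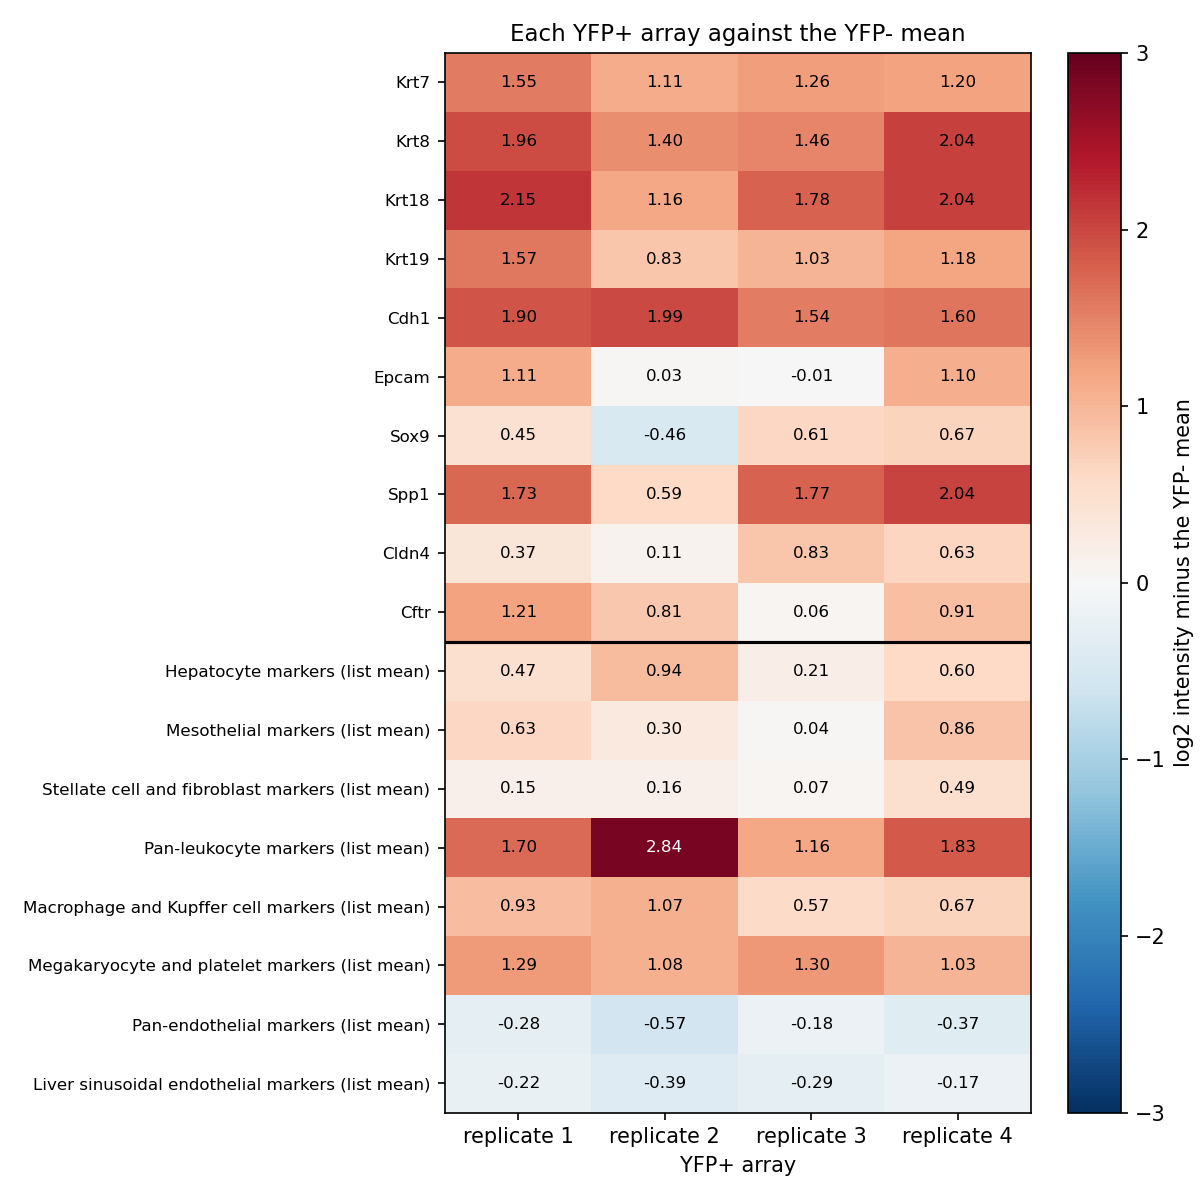
Log2 intensity of each YFP+ array (columns) minus the YFP- mean, for the members and for the mean of 8 marker lists, the mesothelial one without the members (rows), with the value in each cell. Replicate 2 is the highest for pan-leukocyte (2.84), macrophage (1.07) and hepatocyte (0.94) markers and for Cdh1 (1.99). It is the lowest for Krt7 (1.11), Krt8 (1.40), Krt18 (1.16), Krt19 (0.83), Sox9 (-0.46), Spp1 (0.59) and Cldn4 (0.11).

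Some markers of other cell types that the sort could hold were called higher as well. All 15 measured hepatocyte markers had positive differences and 2 were called, Ttr, the gene of transthyretin (1.48, SE 0.23, limma adjusted p = 0.0134), and Alb, the gene of albumin (1.01, SE 0.17, limma adjusted p = 0.0200). Without YFP+ replicate 3 the hepatocyte count was 4 and that of pan-leukocyte markers, described below, 8. The summed intensity of the hepatocyte markers was 3432 to 5020.1 units on YFP- and 5684 to 9433 units on YFP+ arrays. The hepatocyte list mean on YFP+ replicates 1 to 4 was 7.99, 8.46, 7.73 and 8.13 log2, highest on replicate 2, where most members were lowest and Cdh1 was highest. Mesothelium, the liver's outer lining, also makes Krt8, Krt18 and Krt19. Of the 7 mesothelial markers outside the group 1 was called, Upk3b, a uroplakin gene (1.60, SE 0.30, limma adjusted p = 0.0330). Msln, the gene of mesothelin, stood at 7.04, 7.14, 7.05 and 7.30 log2 on the YFP- and 8.15, 7.60, 7.36 and 8.30 on the YFP+ arrays (difference 0.72, limma adjusted p = 0.126). Without the members, the summed mesothelial intensity was 2929 to 3320.0 units on YFP- and 2997 to 4230.0 units on YFP+ arrays, much of it from Gpm6a (10.75 to 11.24 log2 over the 8 arrays). These 7 markers lay on average 0.63, 0.30, 0.04 and 0.86 log2 above their YFP- mean on YFP+ replicates 1 to 4, highest on replicates 1 and 4 as the average of the members was. The mesothelial mean was lowest on replicate 3, and that of the members on replicate 2. The tight junction, epithelial regulator, biliary transcription factor, transport and mucin lists were also highest on replicates 1 and 4. Like the members, those lists were lowest on replicate 2. The remaining epithelial lists had other orders. The desmosome list and the other keratins were lowest on replicate 1 (0.36 and 0.04 log2 above their YFP- means), and highest on replicates 4 (0.65) and 3 (0.27). The cadherin partners were highest on replicate 1 (0.19), then on replicate 3 (0.06), and lowest on replicate 2 (-0.14).

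Of 12 pan-leukocyte markers all were positive and 6 were called higher, with a summed intensity of 1484 to 2075 units on YFP- and 5239.5 to 17764 units on YFP+ arrays. Those called included Laptm5 (3.74), Cd53 (3.30), Spi1 (3.09) and Tyrobp (3.01), with limma adjusted p = 0.000639 to 0.00991. Each of these differences was above the largest of a member, 1.78. The list mean on YFP+ replicates 1 to 4 was 8.72, 9.86, 8.18 and 8.85 log2. It was highest on replicate 2, as were Cdh1 and the means of the hepatocyte and macrophage lists. Ptprc, the gene of CD45, stood at 7.41, 7.29, 6.79 and 7.64 log2 on the YFP- and 9.06, 10.08, 7.22 and 8.82 on the YFP+ arrays (difference 1.51, limma adjusted p = 0.181). Of 12 macrophage and Kupffer cell markers, of a cell type that can make osteopontin, 5 were called higher and 11 were positive, with 1547 to 1766 units on YFP- and 2643 to 3675 units on YFP+ arrays. Of 8 platelet markers 3 were called higher (1651 to 1706 and 4157 to 5099 units), Ppbp by 4.16, Pf4 by 2.26 and Gp6 by 1.01 log2. Of 10 stellate cell and fibroblast markers none was called (1625 to 1838 and 1797 to 3162 units, with an Lrat difference of 0.27, limma adjusted p = 0.631). Pan-endothelial markers gave 31476 to 33056 and 23828 to 28278 units, with 12 of 12 differences negative, and sinusoidal markers 32277 to 35831 and 26873 to 30637 units, with 10 of 10 negative. No marker is at 0 on any array. The part of these other cell types in the differences of the 10 genes was not tested.

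In the authors' deposited table, the fold of group means, YFP+ over YFP-, was 3.46 for Krt18, 3.33 for Cdh1, 3.24 for Krt8, 2.97 for Spp1, 2.44 for Krt7, 2.24 for Krt19, 1.74 for Cftr, 1.55 for Epcam, 1.38 for Cldn4 and 1.30 for Sox9. Its unadjusted p-values, from a test that is not named, ran from 0.000166 for Krt7 to 0.180 for Sox9, and that of Cftr was 0.0301 in the authors' deposited table. The authors' folds divide mean intensities, whereas the differences above are between means of log2 values. Krt19, Cftr, Epcam, Cldn4 and Sox9 lay below the brightness threshold on every array, and Krt7, Krt8 and Krt18 on every YFP- array. The size of the folds of these genes is therefore not settled.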

How the data were processed

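RNA of sorted liver endothelial cells was measured on 8 arrays; per the labels' protocols, 100 pg of total RNA per sample was amplified and biotin-labelled with a 3' IVT Pico kit. No source used here states the array model, the summarization or the background correction. The authors deposited intensity values per probe set that were already scaled between arrays, together with their group means, a ratio (fold) and an unadjusted p-value, per the file headers. Values came from the value table keyed by sample, and symbols from the annotation column of the other table, where all 8 columns are identical.

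Of 22206 probe sets of genes, 3 with a missing value, 829 with several symbols and 3 with none were left out, as were 6923 control and reporter entries; 899 symbols were updated through Entrez numbers to RefSeq (GRCm38.p6). The brightest probe set was taken for 131 genes with several, which left 21161 genes, with no filter on dim ones. Values were log2 transformed and tested in R 4.3.3 by lmFit and eBayes of limma 3.58.1 with no covariate, two-sided, Benjamini-Hochberg adjusted over all genes, threshold 0.05. Each SD is over 4 arrays, and each SE is limma's. The labels call the arrays biological replicates; p-values measure the spread between these arrays, whose number limits the precision.

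The members, gene lists, motif and tests were chosen with earlier results of these data known. Named genes were all members, the called genes of every list (at most 4, by adjusted p), 9 defining markers and the 6 nearest profiles, of which those that bear on the members are given; Krt23, Gpm6a and the examples of lists without a call were named besides. Replicate numbers are shared by the groups, but no label says that a number marks a mouse, so arrays were not paired. Deviations of same-numbered arrays correlated at 0.019 to 0.159 and those of other pairs of arrays at -0.130 to 0.067. Of the 8 arrays, 7 correlated best with their own number, so a fit with the replicate block is also given below. The fit was also tested on simulated data. Python 3.11.15, numpy 2.4.6, pandas 2.3.3 and matplotlib 3.10.9 served for tables and plots.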

Additional observations from a re-analysis of the deposited data

Results flagged for a closer look

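Among 116 sets of 4 arrays checked (the members and the other named genes, in each group), 4 held an array far from the other 3, about what chance gives at 1 in 20, and none was of a member. Atp1b1 was low on YFP+ replicate 3, at 9.55 log2 against 10.16 to 10.25. Kif12 was low on YFP+ replicate 2, at 7.72 against 8.34 to 8.43, the array on which 7 of the 10 members were also lowest. Habp2 was high on YFP- replicate 1, at 8.24 against 7.93 to 7.96. Krt5 was low on YFP- replicate 3, at 6.36 against 6.54 to 6.55.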

How the results depend on the processing

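Every member kept a positive difference in each alternative that tested it. Krt7 and Cdh1 kept their calls in all of them, and no call of a member changed with the replicate block, cyclic loess, averaged probe sets or trended and robust eBayes. With the replicate block, 6 members and 241 genes were called, 37 of them lower (38 lower after cyclic loess), and Cldn7, Dsg2, St14, Elf3, Bicc1 and Itgb5 were not called (limma adjusted p = 0.0514 to 0.0623); 7 of 8 arrays correlated best with the array of their own number, a hint from the data and not the design. Subtracting the negative control median (values floored at 16 units) left 4 members and 271 genes called, with Krt8 at 2.19 (limma adjusted p = 0.0648) and Spp1 at 1.73 (0.143); Krt7 stood at 2.12, Krt19 at 2.93, Epcam at 1.59, Cldn4 at 1.76, Sox9 at 0.61 and Cftr at 0.30, each moved by over 1.5 times. Subtracting the background control median, chosen after seeing the data, left 2 members called: Krt8 stood at 1.97, Krt18 at 2.06, Krt19 at 1.87 and Spp1 at 1.64 (limma adjusted p = 0.0666, 0.0552, 0.0826 and 0.144), Epcam at 0.90, Cldn4 at 0.95 and Cftr at 1.15, not called; it called 164 genes, 110 higher, and 4 of the other epithelial and biliary genes. Quantile normalization left 5, with Spp1 at 1.54. With dim genes left out, 3382 genes were tested, 5 members among them, of which all were called; 130 genes were higher, 118 lower, and 6 of the 20 other epithelial genes left were called. Array weights called 7 members, Cftr at 0.89 (limma adjusted p = 0.0113), 695 genes, 519 higher and 176 lower, and 27 of the other epithelial genes. Without YFP+ replicates 2 and 3, chosen after seeing the data, 8 members were called (Epcam at 1.10, Cftr at 1.06; these arrays were chosen partly for low member values, so this count is no support), with 586 genes, 503 higher, and 27 other epithelial genes. The cause of these shifts was not tested.

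Leaving out each array in turn gave 4 members (without YFP- replicate 2) to 7 (without YFP+ replicate 2), 5 to 21 of the other epithelial genes, and 115 to 140 genes without any 1 of the YFP- arrays, 182, 329, 636 and 183 without YFP+ replicates 1 to 4, 107 to 502 higher and 8 to 134 lower. The differences ranged over 1.01 to 1.26 for Krt19, 1.36 to 1.85 for Spp1, 0.20 to 0.58 for Sox9 and 0.59 to 0.97 for Cftr. Of the 39 other called genes named by the rule, all kept their direction and 15 kept their call in every alternative run. Signal over background limits Krt19, Epcam, Sox9, Cldn4 and Cftr, which lay below the brightness threshold on all 8 arrays.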

Other observations

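On every YFP- array, 8 of the 10 members were below the brightness threshold, as were 82.3% of all genes tested. Replicate 1 was the highest YFP- array for 8 of the 10 members (by under 0.01 log2 for Sox9 and Cftr, which were below the brightness threshold), against 19.6% of all genes, and for 38 of the 122 other epithelial and biliary genes. Krt18, Krt19, Epcam and Cftr were highest on replicate 1 in both groups, as were 5.03% of all genes. On the YFP- arrays Tff2 was also highest on replicate 1, with 8.88 log2 on YFP- replicate 1 and 7.63 to 7.96 on the other YFP- arrays, as was Bicc1, with 8.45 against 7.19 to 8.00. No source says whether arrays of the same number share a mouse, and no test was made.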
